A study of Rattus norvegicus with 6 samples.

Results

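Actin cytoskeleton and focal adhesion genes are described here in H9c2 cells, a myoblast-like line first isolated from the heart of a rat embryo, sequenced as 3 PERK-labelled libraries and 3 control libraries. The 48 genes were named one by one for their part in actin filaments, contraction and adhesion. They were chosen by function and with the fold changes of these same 6 libraries already known, so the fold changes and adjusted p-values of single genes below describe the comparison and are not an independent test of the list. All 48 are among the 26126 entries of the deposited count table, and all 48 passed the filter on low counts, which left 14488 tested entries.

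The PERK-labelled group received an adenovirus labelled adPERK and the other group a control adenovirus. PERK is the endoplasmic reticulum kinase encoded by Eif2ak3. Both groups went through what the labels call ischemia reperfusion: cells stood in an acidic buffer of pH 6.2 with lactate and deoxyglucose, in a chamber flushed for 30 min with 95% nitrogen and 5% carbon dioxide and then sealed for 1.5 to 3.5 h. Medium held 10% serum in both groups. The labels name 1 cell line and 3 libraries a group, and no label states that replicates are separate cultures. The p-values therefore measure only the spread among these 6 libraries, and that spread may be technical. What promoter drives the adenoviral gene is not stated in the labels.

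Total counts were 100816534, 119087414 and 89798433 in PERK-labelled replicates 1 to 3 and 111052659, 81000592 and 77923398 in control replicates 1 to 3. Control replicate 3 stood apart, with 19287 entries above 0 against 15377 to 16685 in the other libraries. Eif2ak3 itself was at 26.5, 26.5 and 26.0 CPM (counts scaled for library depth) in PERK-labelled libraries and at 26.4, 26.9 and 24.0 CPM in controls, with a log2 fold change of 0.03 (edgeR adjusted p = 0.887). The count of the targeted gene thus does not separate the groups, and directions below follow the labelling of the libraries. Of the muscle progenitor markers, Myog stood at 390, 408 and 401 CPM in PERK-labelled libraries and at 474, 491 and 493 CPM in controls, and fell (log2 fold change -0.28, edgeR adjusted p = 0.0137). Its part in the members' levels was not tested. None of the other 7 tested progenitor markers passed (edgeR; none had an unadjusted p under 0.05). Their log2 fold changes lay on both sides of 0. Above 0 were Acta1 (0.23), Tnnt1 (0.10) and Cdh15 (0.06), and below were Myod1 (-0.10), Des (-0.07), Chrna1 (-0.05) and Actc1 (-0.03). For Tnnt1 all 3 PERK-labelled libraries were above all 3 controls. Of the progenitor markers not tested, Myf5 had no counts in any library and Myf6 averaged under 1 CPM. Of 9 markers of differentiated heart muscle 7 averaged under 1 CPM, among them Myh6, Myl2 and Nppa, and 5 of 6 endothelial and 5 of 6 leukocyte markers in the table did as well.

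Actin monomers polymerise into filaments, which cells of the muscle and fibroblast lineages bundle, branch and contract against membrane anchors called focal adhesions. Focal adhesions join filaments to integrins, the receptors that hold the extracellular matrix, through adaptors such as talin and vinculin. Many genes of this machinery are switched on by SRF, a transcription factor whose coactivators are held back by free actin monomers, and SRF binds a DNA element called the CArG box.

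Most of these genes stood slightly higher in the PERK-labelled libraries, and 6 passed the test across the whole table. The 6 were the actins Actg1 and Actg2, the crosslinker Actn1, the branching subunit Actr3, the adhesion adaptor Vcl and the LIM protein Fhl2. All 6 rose and none of the 48 fell (edgeR adjusted p under 0.05), beside 0.421% of all tested entries called in either direction, 0.311% called higher, and 0.7% called higher among the 5857 entries with a mean of at least 21.9 CPM, the lowest mean of a member. The changes were small, between 0.98-fold and 1.23-fold. The log2 fold change, PERK-labelled over control, was above 0 for 44 of 48 members, where 54.8% of the 5857 entries were above 0. Its median was 0.12 over the members, 0.01 over those 5857 entries and -0.0045 over all tested entries. An unadjusted p under 0.05 with a higher level was found for 31 members, beside 5.94% of all tested entries and 10.8% of the 5857. The 5857 share only a lower bound on level with the members and are not matched to them in level or spread. The median SD as a share of the mean was 2.50% in PERK-labelled libraries and 2.86% in controls over the members. Over the 5857 it was 3.97% and 4.13%. Their shares are thus not those of genes with the members' own levels and spread.

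**Figure D1:**
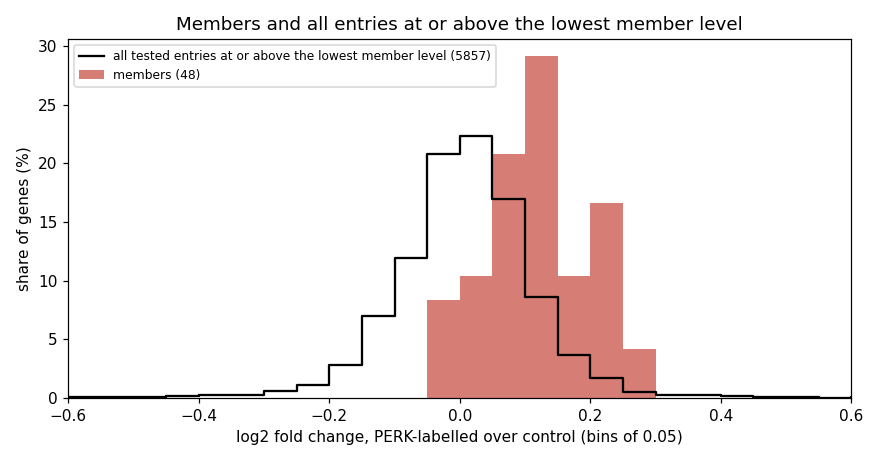
Share of genes (%) by log2 fold change, PERK-labelled over control, in bins of 0.05. Bars are the 48 members, with a median of 0.12, and the line is the 5857 tested entries at or above the lowest member level, with a median of 0.01.

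In 32 of the 48 members every PERK-labelled library lay above every control library, and in 0 every one lay below; the background was 9.66% of all tested entries and 15.1% of the 5857. PERK-labelled replicate 3 held the highest value for 22 members, replicate 1 for 14 and replicate 2 for 7. The lowest value lay in control replicates 1, 2 and 3 for 19, 14 and 12 members. Relative to the control mean, the median log2 ratio over the members was 0.12, 0.11 and 0.12 in PERK-labelled replicates 1 to 3, and -0.01, 0.01 and 0.0058 in control replicates 1 to 3. Single members were less even, as for Acta2 at 0.05, -0.04 and 0.24 and Actr2 at 0.19, 0.11 and 0.01 in PERK-labelled replicates 1 to 3. Together the 48 members took 3.65%, 3.78% and 3.79% of all counts in PERK-labelled libraries and 3.39%, 3.57% and 3.45% in controls. In bulk RNA, more cells that express a gene and more RNA per cell cannot be told apart.

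The calls rested on all 6 libraries. With any 1 library left out, edgeR called 0 of the 48 members (0 without PERK-labelled replicate 1, 2 or 3 and 0 without control replicate 1, 2 or 3), while 24 to 30 had an unadjusted p under 0.05 and the median log2 fold change was 0.11 to 0.12. The smallest adjusted p of a member in those fits lay between 0.0612 and 0.148. Over all tested entries those fits called 12 to 38, against 61 with all 6 libraries. In them 8.85% to 10.5% of all tested entries had an unadjusted p under 0.05 (edgeR). Without control replicate 3, the library that stood apart, the log2 fold change was above 0 for 43 of 48 members, with a median of 0.12. DESeq2 called 24 members, limma voom 11 and edgeR with robust estimation 11, all higher, and all 6 genes were among them each time. Over all entries, DESeq2 called 4.18% of the 9420 to which it gave an adjusted p. Limma voom called 0.759% and robust edgeR 0.911% of 14488. In the authors' deposited table, adjusted p-values were under 0.05 for 6 members, beside 2.27% of entries with an adjusted p, and 3 of these, Actg2, Actn1 and Vcl, are among the 6 called with edgeR. The other members in the authors' deposited table are Tpm1 (adjusted p = 0.0471), Enah (5.7e-04) and Pdlim5 (0.00204).

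**Figure D2:**
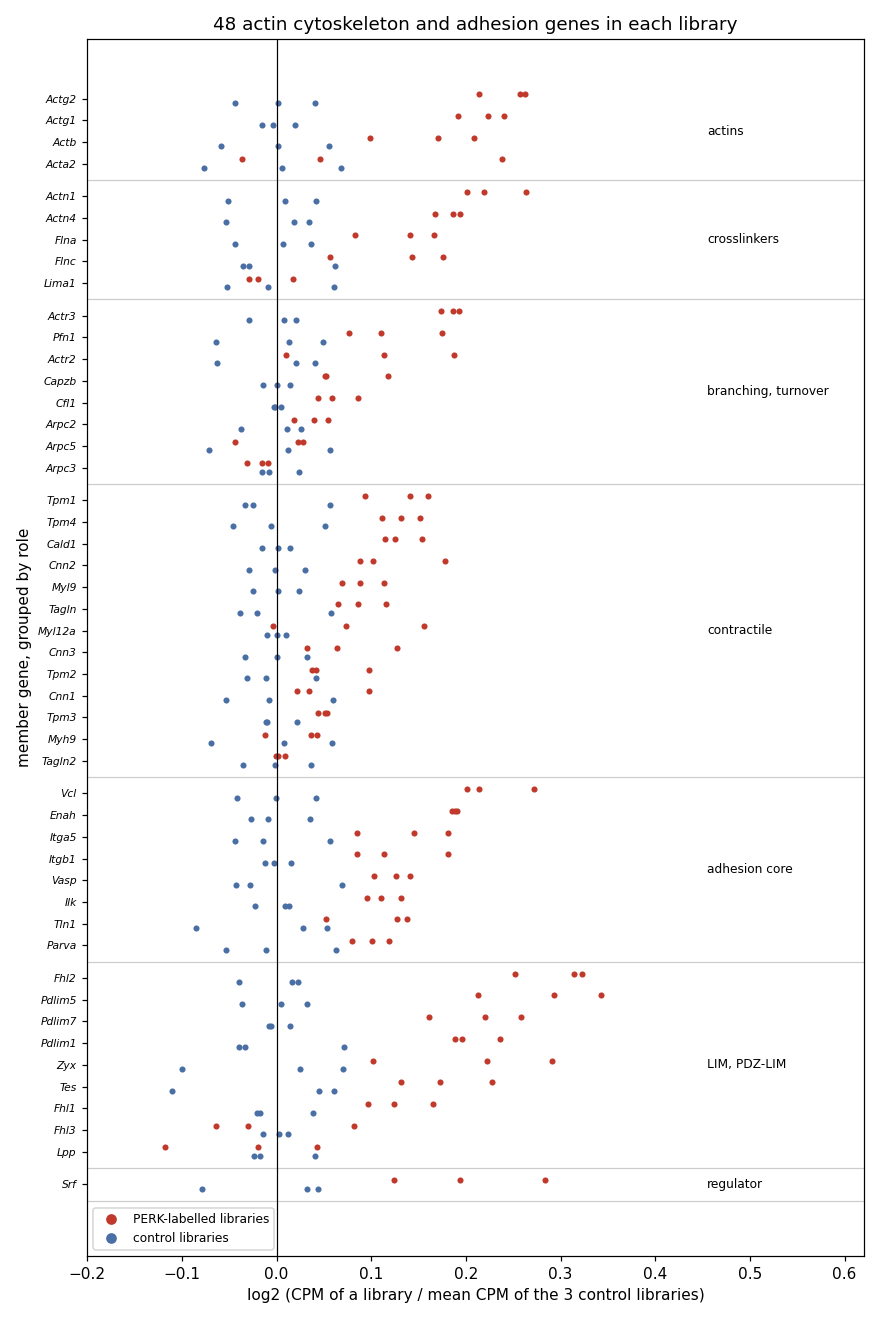
Each member's level in each library as log2 of its CPM over the mean CPM of the 3 control libraries, grouped by role, with PERK-labelled libraries drawn above control libraries. In 32 members all 3 PERK-labelled points lie to the right of all 3 control points; Acta2, Lpp, Fhl3 and Lima1 are among the 16 that overlap.

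Start regions of 5 genes are shown because they carry, or lack in this window, the element bound by SRF. RefSeq's GRCr8 table of start regions, from 250 bases before to 50 after a gene's start, matched 42 of the 48 members by symbol, in 50 regions; Actb, Actn4, Lpp, Myl9, Parva and Tagln did not match. Motifs are in capitals and searched on both strands. They are the CArG box in its strict form CCWWWWWWGG (W is A or T), GGAATG (the core bound by TEAD factors) and TGANTCA (the core bound by AP-1). Looser forms of the CArG box were not searched. No match overlaps another in any member's region. The Actg1 region (chr10:106120902-106121201, minus strand) holds a CArG box that begins 90 bases before the start. The Srf region (chr9:21923826-21924125, plus strand) holds a pair of CArG boxes that begin 81 and 61 bases before the start. Fhl2 has several listed starts, of which another also holds a CArG box, and the region shown (chr9:52923277-52923576, minus strand) has a CArG box beginning 58 bases before the start. The Vcl region (chr15:3404751-3405050, minus strand) holds GGAATG and the Actg2 region (chr4:117593990-117594289, minus strand) holds TGANTCA, and neither has a CArG box in these letters. The Vcl letters open with cttataagg, which lacks only the first C of a CArG box, and the base before lies outside the window. The Actg2 letters after the listed start hold a possible start codon (atgtgtgaa). Whether the letters before it lie in a promoter or an intron was not tested.
Actg1: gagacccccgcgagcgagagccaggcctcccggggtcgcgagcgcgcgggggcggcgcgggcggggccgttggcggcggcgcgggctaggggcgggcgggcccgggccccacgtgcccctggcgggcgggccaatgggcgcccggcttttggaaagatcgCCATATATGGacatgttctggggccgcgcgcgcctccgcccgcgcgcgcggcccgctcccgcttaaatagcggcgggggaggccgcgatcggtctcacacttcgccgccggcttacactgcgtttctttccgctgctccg
Srf: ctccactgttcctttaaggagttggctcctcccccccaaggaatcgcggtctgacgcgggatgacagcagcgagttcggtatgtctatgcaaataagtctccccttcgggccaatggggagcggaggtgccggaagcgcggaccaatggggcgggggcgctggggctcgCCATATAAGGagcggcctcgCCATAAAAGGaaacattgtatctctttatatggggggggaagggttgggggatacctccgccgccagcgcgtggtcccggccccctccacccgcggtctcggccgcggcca
Fhl2: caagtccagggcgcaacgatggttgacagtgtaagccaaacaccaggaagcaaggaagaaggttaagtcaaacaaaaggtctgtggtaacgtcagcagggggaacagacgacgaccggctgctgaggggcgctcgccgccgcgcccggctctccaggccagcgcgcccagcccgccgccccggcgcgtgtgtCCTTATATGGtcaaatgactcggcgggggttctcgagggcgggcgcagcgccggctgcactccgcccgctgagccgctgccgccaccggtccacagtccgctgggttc
Vcl: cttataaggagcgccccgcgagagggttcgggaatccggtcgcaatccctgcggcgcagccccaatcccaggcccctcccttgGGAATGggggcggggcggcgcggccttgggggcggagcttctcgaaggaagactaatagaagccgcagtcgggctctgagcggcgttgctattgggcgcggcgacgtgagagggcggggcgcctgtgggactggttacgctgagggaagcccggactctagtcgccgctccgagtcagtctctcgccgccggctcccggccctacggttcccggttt
Actg2: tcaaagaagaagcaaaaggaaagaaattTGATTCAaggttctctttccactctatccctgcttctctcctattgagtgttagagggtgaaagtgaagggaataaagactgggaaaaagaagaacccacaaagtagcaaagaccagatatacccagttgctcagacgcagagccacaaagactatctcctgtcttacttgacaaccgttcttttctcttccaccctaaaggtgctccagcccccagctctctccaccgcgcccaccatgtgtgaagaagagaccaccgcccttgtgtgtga

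Of the 42 matched members 6 had a CArG box in a listed region, namely Actg1, Cnn2, Fhl1, Fhl2, Lima1 and Srf, against 485 of all 27457 symbols in the table (1.77%). Several of these genes are textbook SRF targets, so the choice of members bears on that share. Among the 6, the log2 fold change ran from -0.01 (Lima1) to 0.30 (Fhl2) with a median of 0.17. Among the 36 matched members without a strict match in this window it ran from -0.02 to 0.28 with a median of 0.12. The 36 include Acta2, whose region holds the near matches ccctatatgg and ccttgtttgg, and Vcl, whose near match is cut by the window edge. The split is thus by strict letters in this window and not by SRF binding. Called genes were 2 of the 6 (Actg1 and Fhl2) and 4 of the 36. GGAATG was found for 12 of the 42, including Vcl, Zyx, Tpm1, Itgb1 and Flna, where 15.0% of all symbols held it, and TGANTCA for 2, Actg2 and Myh9, where 8.04% did. The Myh9 match lies at a listed start downstream of another, whose region has none. Which listed starts these cells use was not tested. A match is a description of letters and not a bound site.

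The 4 actins all had a log2 fold change above 0, and 2 of them rose. Cytoplasmic gamma actin, encoded by Actg1, was at 859, 877 and 888 CPM in PERK-labelled libraries and at 749, 762 and 744 CPM in controls. The groups did not overlap (log2 fold change 0.22, SE 0.03, edgeR adjusted p = 0.0269). Smooth muscle gamma actin, encoded by Actg2, was at 908, 881 and 911 CPM in PERK-labelled libraries and at 737, 760 and 781 CPM in controls (log2 fold change 0.24, SE 0.03, edgeR adjusted p = 0.0286). All 3 PERK-labelled libraries were again above all 3 controls.

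Actb, which encodes cytoplasmic beta actin, stood at 5112, 5520 and 5376 CPM in PERK-labelled libraries and at 4780, 4964 and 4583 CPM in controls, with a log2 fold change of 0.16 (SE 0.04, edgeR adjusted p = 0.173). The groups did not overlap, but the change did not pass the edgeR test, while DESeq2 called Actb. Acta2, smooth muscle alpha actin, had 863, 815 and 986 CPM in PERK-labelled libraries against 839, 876 and 793 CPM in controls. Here the groups overlapped, since PERK-labelled replicate 2 was below control replicates 1 and 2, and the log2 fold change of 0.09 (SE 0.07, edgeR adjusted p = 0.7) ranged from 0.0068 to 0.14 over the alternatives. The ratio of Actg2 to Acta2 counts was 1.05, 1.08 and 0.924 in PERK-labelled libraries and 0.878, 0.868 and 0.986 in controls, which overlap, as did the ratio of Actg1 to Actb (0.164 ± 0.00463 in PERK-labelled libraries and 0.157 ± 0.00445 in controls, SD, n = 3 each). Actin genes are close relatives whose sequences were not compared here, so the counts of single actin genes are uncertain where reads could be shared.

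**Figure D3:**
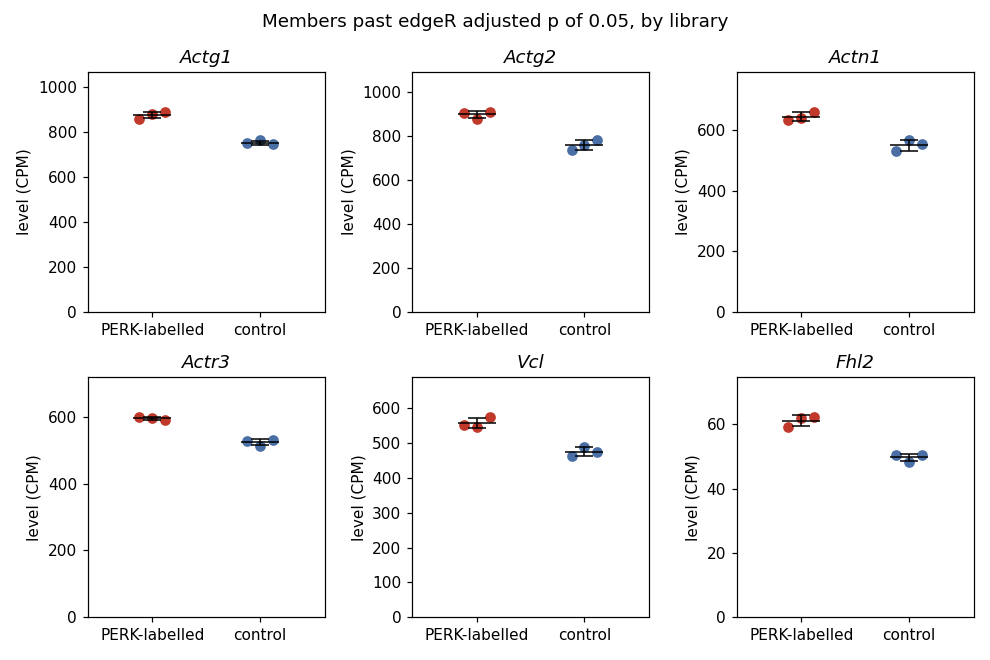
Level in CPM of the 6 called members in each library, with PERK-labelled on the left and control on the right of each panel, and with the mean and SD of 3 libraries as bars. In every panel the 3 PERK-labelled points lie above the 3 control points, as for Vcl at 546 to 573 CPM in PERK-labelled libraries against 461 to 489 CPM in controls.

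Of the 5 crosslinkers 1 rose, Actn1, which encodes a non-muscle alpha-actinin that bundles stress fibres. Actn1 was at 632, 640 and 660 CPM in PERK-labelled libraries and at 531, 566 and 553 CPM in controls, with no overlap (log2 fold change 0.23, SE 0.03, edgeR adjusted p = 0.0385). Its paralog Actn4 had 670, 661 and 674 CPM in PERK-labelled libraries against 568, 603 and 597 CPM in controls (log2 fold change 0.18, SE 0.03), and with an adjusted p of 0.0647 it did not pass. The ratio of Actn1 to Actn4 was 0.964 ± 0.0184 in PERK-labelled libraries and 0.933 ± 0.00559 in controls (SD, n = 3 each), without overlap. Flna, a filamin that links filaments into networks, averaged 6353 ± 189 CPM in PERK-labelled libraries and 5804 ± 164 CPM in controls (SD, n = 3 each; edgeR adjusted p = 0.17). Flnc, the muscle filamin, had a log2 fold change of 0.13 with overlapping groups, and Lima1, a LIM protein that stabilises filaments, one of -0.01. Beside Actn1, DESeq2 called Actn4, Flna and Flnc.

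Among 8 genes of branching and filament turnover, Actr3 alone passed. It encodes an actin-related protein at the core of the complex that starts branches. Actr3 was at 598, 596 and 591 CPM in PERK-labelled libraries and at 526, 513 and 531 CPM in controls (log2 fold change 0.18, SE 0.03, edgeR adjusted p = 0.0385). The partner Actr2 was at 132, 125 and 116 CPM in PERK-labelled libraries and at 117, 119 and 111 CPM in controls, which overlap. The other listed subunits, Arpc2, Arpc3 and Arpc5, had log2 fold changes of 0.04, -0.02 and 0.0024, each with overlapping groups. Outside the list, the subunit Arpc4 was at 0.12 without overlap (edgeR adjusted p = 0.17), and DESeq2 called it. Arpc1a, Arpc1b and Arpc5l were at 0.02, 0.02 and -0.04 with overlapping groups. Thus 1 of the 5 listed subunits passed, and the difference between subunits was not tested.

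Genes that sever, cap or feed filaments did not pass. Cfl1, the severing protein cofilin, was at 1135, 1147 and 1168 CPM in PERK-labelled libraries and at 1100, 1099 and 1104 CPM in controls, a log2 fold change of 0.06 without overlap. Pfn1, profilin, which delivers actin monomers, had a log2 fold change of 0.12 (edgeR adjusted p = 0.304), and the capping subunit Capzb one of 0.07, also without overlap. The median over the 8 genes was 0.07.

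None of the 13 contractile and thin-filament genes passed with edgeR (6 had an unadjusted p under 0.05, and DESeq2 called 4: Cald1, Cnn2, Tpm1 and Tpm4). All 13 had a log2 fold change above 0, from 0.0029 (Tagln2) to 0.13 (Tpm1), with a median of 0.08. Tpm1, a tropomyosin that lies along the filament, stood at 1337, 1276 and 1319 CPM in PERK-labelled libraries and at 1170, 1176 and 1244 CPM in controls. The groups did not overlap, yet the edgeR adjusted p was 0.223. Tpm4 had 458, 471 and 465 CPM in PERK-labelled libraries against 440, 423 and 411 CPM in controls, a log2 fold change of 0.13 as well, while Tpm2 and Tpm3 were at 0.06 and 0.05.

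Tagln, which encodes the smooth muscle protein transgelin, was at 2120, 2046 and 2077 CPM in PERK-labelled libraries and at 1928, 1904 and 2036 CPM in controls (log2 fold change 0.09). Every PERK-labelled library was above every control, and control replicate 3 came closest. Caldesmon, encoded by Cald1, which restrains contraction, averaged 1218 ± 17.0 CPM in PERK-labelled libraries and 1112 ± 11.5 CPM in controls (SD, n = 3 each; edgeR adjusted p = 0.156). The calponins Cnn1, Cnn2 and Cnn3 had log2 fold changes of 0.05, 0.12 and 0.07, and the regulatory light chains Myl9 and Myl12a 0.09 and 0.08. Myh9, the heavy chain of non-muscle myosin II, was at 1288, 1332 and 1338 CPM in PERK-labelled libraries and 1238, 1353 and 1306 CPM in controls, with overlapping groups.

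In the adhesion core 1 of 8 genes rose with edgeR, and all 8 had an unadjusted p under 0.05. Beside that gene, Vcl, DESeq2 called Enah, Ilk, Itgb1 and Itga5. Vcl, vinculin, which ties talin to filaments, was at 550, 546 and 573 CPM in PERK-labelled libraries and at 461, 489 and 475 CPM in controls (log2 fold change 0.23, SE 0.03, edgeR adjusted p = 0.0385). Enah, which speeds filament elongation at adhesions, was at 224, 225 and 224 CPM in PERK-labelled libraries and at 196, 202 and 193 CPM in controls. Neither gene's groups overlapped, but Enah had an edgeR adjusted p of 0.0573 and did not pass.

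Itgb1, the beta subunit shared by many matrix integrins, was at 2425, 2269 and 2314 CPM in PERK-labelled libraries and at 2120, 2161 and 2136 CPM in controls (log2 fold change 0.13, edgeR adjusted p = 0.204). Its partner for fibronectin, Itga5, had a log2 fold change of 0.14 (edgeR adjusted p = 0.225). Both had groups that did not overlap. Tln1, talin, which activates integrins, was at 581, 613 and 617 CPM in PERK-labelled libraries and at 529, 582 and 572 CPM in controls, overlapping by PERK-labelled replicate 1 and control replicate 2. The scaffold genes Ilk and Parva, whose proteins bind each other, had log2 fold changes of 0.11 and 0.10, and Vasp, a relative of Enah, one of 0.12.

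The 9 LIM and PDZ-LIM genes had a median of 0.21 and held both the largest and the smallest log2 fold change of the 48. Fhl2, a LIM-only coregulator and adhesion protein of heart muscle, was at 59.2, 61.9 and 62.2 CPM in PERK-labelled libraries and at 50.3, 48.4 and 50.5 CPM in controls (log2 fold change 0.30, SE 0.04, edgeR adjusted p = 0.0365). The groups did not overlap, and this was the only edgeR call in the group. DESeq2 also called Zyx, Fhl1, Pdlim1, Pdlim5 and Pdlim7, and the authors' deposited table gives Fhl2 an adjusted p of 0.167. Pdlim5, a PDZ-LIM scaffold that binds alpha-actinin, came next at 145, 153 and 158 CPM in PERK-labelled libraries and 122, 128 and 125 CPM in controls (log2 fold change 0.28, SE 0.05, edgeR adjusted p = 0.0516). Pdlim1 and Pdlim7 each had a log2 fold change of 0.21 and groups without overlap, with edgeR adjusted p of 0.126 and 0.077.

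Zyx, zyxin, which is recruited to strained filaments, was at 255, 277 and 291 CPM in PERK-labelled libraries and at 222, 250 and 242 CPM in controls (log2 fold change 0.21, SE 0.06, edgeR adjusted p = 0.224). Control replicate 1 was the lowest and PERK-labelled replicate 3 the highest, and the groups did not overlap. Tes, testin, had a log2 fold change of 0.18 and Fhl1 of 0.13, while the zyxin relative Lpp was at 59.9, 67.0 and 64.2 CPM in PERK-labelled libraries and at 64.0, 66.9 and 64.2 CPM in controls (log2 fold change -0.03). Fhl3 averaged 21.9 ± 1.17 CPM in PERK-labelled libraries and 21.9 ± 0.201 CPM in controls (SD, n = 3 each). Within the Fhl genes, the ratio of Fhl2 to Fhl1 was 0.0702 ± 0.00226 in PERK-labelled libraries and 0.0625 ± 0.0013 in controls (SD, n = 3 each), without overlap.

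Srf, the regulator in the list, was at 69.1, 72.5 and 77.2 CPM in PERK-labelled libraries and at 64.9, 65.4 and 60.0 CPM in controls. The groups did not overlap, and the log2 fold change of 0.20 (SE 0.06) had an edgeR adjusted p of 0.225. Leaving out 1 library or changing the tool kept it between 0.16 and 0.24, and DESeq2 called it (adjusted p = 0.0288).

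**Figure D4:**
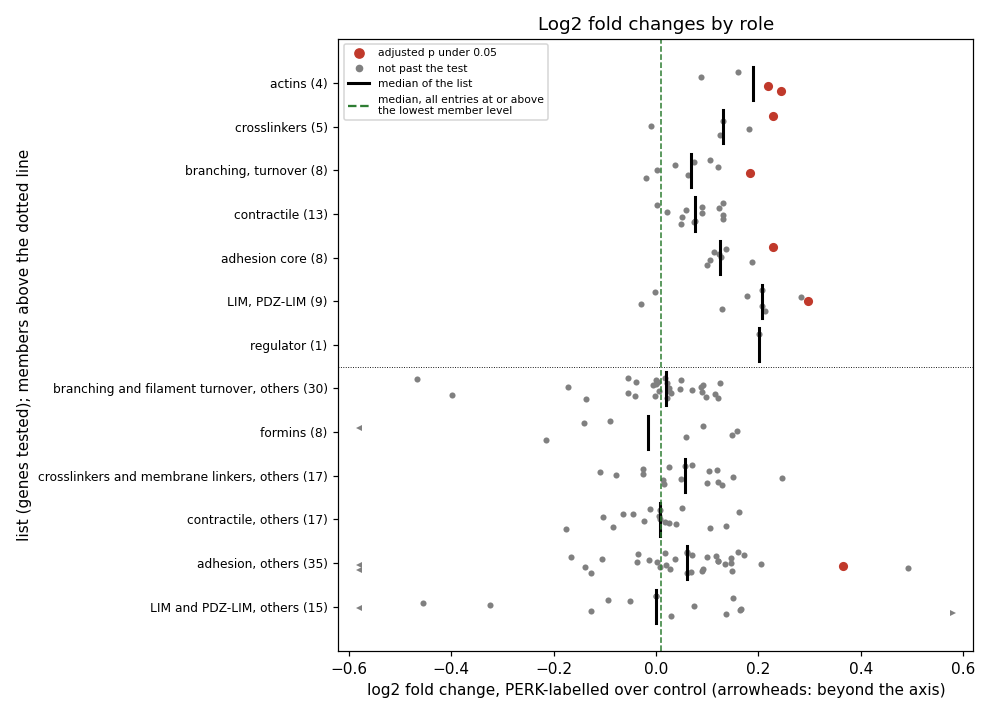
Log2 fold change, PERK-labelled over control, of each tested gene by role, with members above the dotted line and 6 lists of other genes of the same machinery below it. Black bars are list medians, the dashed line is the median of the 5857 entries, and red points passed the test; the adhesion list below the line holds the 1 other called gene, Itga3.

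Summed over a role, every group of members was higher in each PERK-labelled library than in each control. The actins summed to 7741, 8093 and 8161 CPM in PERK-labelled libraries and to 7105, 7362 and 6901 CPM in controls. The LIM and PDZ-LIM genes summed to 1810 ± 51.5 CPM in PERK-labelled libraries and 1613 ± 28.7 CPM in controls (SD, n = 3 each), 12.2% more. The branching and turnover genes summed to 2990 ± 11.3 CPM in PERK-labelled libraries and 2813 ± 8.11 CPM in controls (SD, n = 3 each), 6.28% more. Contractile genes were 6.00% higher and adhesion core genes 9.98% higher in sum. Such a sum is carried by its most counted genes, as Actb carries that of the actins.

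Other genes of the same machinery were counted in the same way. Of 147 further names on 7 lists, among them turnover, formins, crosslinkers, contractile, adhesion and LIM genes, 140 were in the table and 136 were tested. Of these 136, 1 rose and 0 fell (edgeR; 31 had an unadjusted p under 0.05, 24 of them higher, and DESeq2 called 12), 92 had a log2 fold change above 0 and the median was 0.03. Over all tested entries edgeR called 0.421%, and DESeq2 called 4.18% of the 9420 entries to which it gave an adjusted p. An unadjusted p under 0.05 (edgeR) was found for 11.2% of all entries, and with a higher level for 5.94%. The log2 fold change was above 0 for 48.7%. Itga3, an integrin subunit for laminin, was the 1, at 82.2, 82.3 and 86.5 CPM in PERK-labelled libraries and 61.8, 67.0 and 66.2 CPM in controls (log2 fold change 0.36, SE 0.05, edgeR adjusted p = 0.0269). Fermt2, a kindlin that helps talin activate integrins, had 327, 308 and 325 CPM in PERK-labelled libraries against 275, 275 and 283 CPM in controls, with an edgeR adjusted p of 0.0581.

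Further genes with small p-values were Itga7, the laminin receptor subunit of muscle (log2 fold change 0.15, edgeR adjusted p = 0.131), and Csrp1, a LIM protein that binds alpha-actinin (0.15, 0.156). On the lower side stood Ssh2, a phosphatase that activates cofilin, at 5.07 ± 0.0865 CPM in PERK-labelled libraries and 7.01 ± 0.141 CPM in controls (SD, n = 3 each; log2 fold change -0.47, edgeR adjusted p = 0.125). Itgb8, an integrin subunit, had 2.90 ± 0.277 CPM in PERK-labelled libraries and 4.64 ± 0.562 CPM in controls (SD, n = 3 each; log2 fold change -0.68, edgeR adjusted p = 0.131), and the authors' deposited table gives it -0.67 with an adjusted p of 3.8e-04. Among the lists, the median was -0.02 for formins and 0.06 for the further adhesion genes.

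Smooth muscle markers, some of which are close relatives of the members or among them (Cnn1), summed to 477 to 494 CPM in PERK-labelled libraries and 441 to 477 CPM in controls. Most of that sum was Cnn1, itself a member, at 285, 288 and 301 CPM in PERK-labelled libraries and 280, 271 and 293 CPM in controls. Of the 6 markers 0 were called (edgeR), and 2, Smtn and Lmod1, had an unadjusted p under 0.05 and groups without overlap, both higher. The groups overlapped for Myocd (log2 fold change 0.08), Cnn1 (0.05), Des (-0.07) and Myh11 (-0.08). Fibroblast markers summed to 29097 to 30081 CPM in PERK-labelled libraries and 27560 to 28967 CPM in controls, with 0 of 7 called (edgeR) and Pdgfra under 1 CPM. Col1a1 and Col3a1 carried that sum. An unadjusted p under 0.05, with groups that did not overlap, was found for Col3a1 (log2 fold change 0.06) and, on the lower side, for Lum (-0.34), while Dcn was at -0.21 with overlapping groups. The part of either in the members' levels was not tested. Endothelial markers summed to 0.638 to 1.27 CPM in PERK-labelled libraries and 1.36 to 2.14 CPM in controls, and leukocyte markers to 9.98 to 11.0 CPM in PERK-labelled libraries and 8.54 to 12.3 CPM in controls. Tek was lower in every PERK-labelled library (log2 fold change -0.82, edgeR unadjusted p = 0.0078, adjusted p = 0.225). Cd14 carried the leukocyte sum. Epithelial markers, mostly Krt8 and Krt7, summed to 53.2 to 54.3 CPM in PERK-labelled libraries and 48.7 to 52.8 CPM in controls, with 0 called (edgeR). The part of these genes in the members' levels was not tested.

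**Figure D5:**
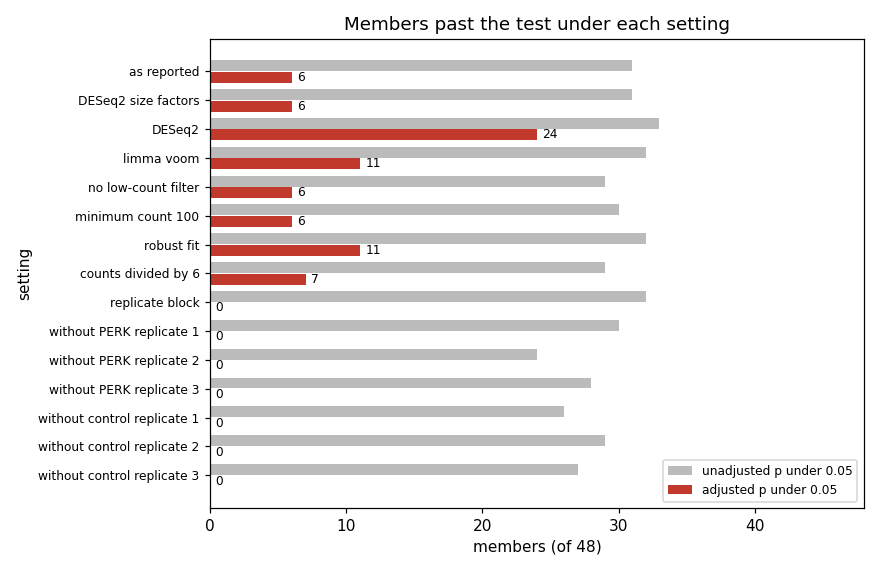
Number of the 48 members past an adjusted p of 0.05 (red, with the number beside the bar) and with an unadjusted p under 0.05 (grey) under each setting. The 6 calls as reported became 24 with DESeq2 and 0 with a replicate block or without any 1 library, while 24 to 33 had an unadjusted p under 0.05 throughout.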

How the data were processed

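RNA sequencing counts of 6 libraries of H9c2 cells were analysed, 3 PERK-labelled and 3 control. The authors' deposited table gives whole-number counts per gene entry for each library. Bowtie 0.12.2 and mm9 appear in the submitters' processing notes, while the entries carry rat symbols. The program that counted reads, its annotation and its use of strand are not stated there, so antisense and overlapping genes may share reads. Of counts from 1 to 60, 55.1% to 59.0% in a library lay within 1 of a multiple of 6. That window is wide, and no expected share was computed. A count may overstate how many separate fragments were seen, which was not tested. The deposited normalized signal, which is each count over 1 size factor per library, was not used, nor were the deposited standard errors and test scores. The deposited log2 fold changes and p-values are quoted where named. Another table with 6 columns whose names match no label was not used.

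Counts were fitted with edgeR 4.0.16 in R 4.3.3 (filterByExpr with minimum count 10, TMM, glmQLFit, glmQLFTest, group as the only term, PERK-labelled minus control) over all entries, with Benjamini-Hochberg adjustment over 14488 tested entries and a threshold of 0.05. A standard error is the log2 fold change over the square root of F. CPM use TMM-scaled totals. DESeq2 1.42.0, limma 3.58.1 and the other alternatives are compared in the closing section, and the steps were tested on simulated data. Depth of members was high, from 1710 counts (Fhl3) to 765887 (Flna) in a library. CPM is not divided by gene length, so levels are compared within a gene only.

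The members, their roles and the further lists were chosen with earlier results of these data known. Named genes are the actins, Srf, called members, and in each role the 2 with the highest CPM and the 2 with the largest change, plus 6 further pathway genes by p. Any other gene named was picked with its values in view. Start regions are from RefSeq, GRCr8. The values of 1 of the further lists are not reported here by name.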

Additional observations from a re-analysis of the deposited data

How the results depend on the processing

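The median log2 fold change of the members lay between 0.11 and 0.13 in the reported fit and all 14 alternatives, and 41 of 48 members were above 0 in every one. The 6 called members became 24 with DESeq2, 11 with limma voom, 11 with robust estimation and 0 with a replicate block (edgeR; 32 had an unadjusted p under 0.05, and the smallest adjusted p was 0.101). Calls over all tested entries fell as well, from 61 to 9 with a replicate block and to between 12 and 38 with 1 library left out. DESeq2 size factors gave the same 6. No low-count filter and a minimum count of 100 also gave 6, of which 4 were the same genes, and counts divided by 6 gave 7, with 5 the same. Leaving out 1 library gave 0 calls among the members and 0 among the further pathway genes (edgeR), where 24 to 30 and 26 to 32 had an unadjusted p under 0.05; each such fit has fewer libraries. The 1 call among the further genes became 12 with DESeq2, 3 with robust estimation, 0 with a replicate block (34 with an unadjusted p under 0.05), and 2 each with limma voom, no low-count filter, a minimum count of 100 and counts divided by 6. Over the alternatives 6 of the 48 members, each near 0 and none called, lay on both sides of 0: Lima1, Arpc5, Tagln2, Lpp, Fhl3 and Myh9, within -0.07 and 0.05. Myh9 ran from -0.013 without control replicate 1 to 0.051 without control replicate 2. The cause of these differences was not tested.

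Same-numbered libraries did not deviate together over all tested entries. Correlations of deviations were -0.06, 0.01 and 0.03 for numbers 1 to 3, where other pairings ran from -0.06 to 0.06. With 3 libraries a group, they cannot show whether libraries were prepared together by number. The members' changes were at most 1.23-fold. Depth was high for every member, with at least 1710 counts in a library.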
